A study of Mus musculus with 12 samples.

Results

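Ccl6 and 9 further chemokine genes with epithelial, stromal or myeloid sources in the gut (Ccl9, Ccl20, Ccl25, Ccl28, Cxcl12, Cxcl13, Cxcl14, Cxcl16 and Cx3cl1) were described in the proximal colon of mice with and without the long noncoding RNA EPR. The 10 genes were given as a list of symbols, chosen by their family and with the counts and fold changes between genotypes already known, and all 10 were found among the 55376 genes of the count table. Of these, 9 were among the 15952 genes expressed highly enough to be tested, and Ccl20 was not. RNA-Seq of total RNA was run on 12 mice aged 12 weeks, with 1 library per mouse and 6 mice per genotype. EPR fl/fl mice carry loxP sites around the EPR promoter and exon 1 and were the controls. EPR cKO mice carry the same floxed allele and in addition the CDX2P-NLS Cre transgene, in which the human CDX2 promoter drives Cre in epithelial cells of the large bowel, cecum and end of the ileum. The floxed allele was therefore shared by all 12 mice, mice with Cre and no floxed allele were not analysed here, and an effect of Cre itself cannot be told apart from that of EPR loss. The tissue was the whole frozen wall of the proximal colon, so each library mixed epithelium with muscle, stroma, vessels and immune cells.

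Chemokines are small secreted or membrane-bound proteins that guide leukocytes along concentration gradients by binding G protein-coupled receptors on their surface. In the gut wall, epithelial cells make chemokines that draw lymphocytes and antibody-secreting cells to the mucosa, stromal cells make those that hold lymphoid structures together, and macrophages and other myeloid cells make those that bring in further myeloid cells. Ccl6 and Ccl9 are neighbouring mouse genes whose products are close relatives of one another and act through the receptor Ccr1.

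Ccl6 lies on the minus strand of chromosome 11 in 4 exon parts that sum to 1440 bases (chr11:83587882-83593087, mm10), and Ccl9 lies on the same strand at chr11:83572919-83578636, with 3006 exon bases. The gap between them is 9.25 kb. Promoter windows were found in RefSeq (GRCm38.p6) for 9 of the 10 genes. Those of Ccl6 and Ccl9 are shown because these neighbours had unlike values in the libraries, as described after the levels. Each window holds 250 bases before and 50 bases after the annotated start, is written 5′ to 3′ on the minus strand, and has in capitals the runs of at least 8 bases that are identical in an alignment of both windows.
Ccl6 (chr11:83593038-83593337, minus strand): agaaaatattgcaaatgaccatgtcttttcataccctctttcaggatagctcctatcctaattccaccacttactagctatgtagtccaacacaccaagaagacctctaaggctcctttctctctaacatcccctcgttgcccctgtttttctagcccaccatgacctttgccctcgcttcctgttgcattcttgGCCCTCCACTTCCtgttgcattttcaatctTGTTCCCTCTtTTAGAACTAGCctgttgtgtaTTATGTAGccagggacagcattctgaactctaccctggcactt
Ccl9 (chr11:83578587-83578886, minus strand): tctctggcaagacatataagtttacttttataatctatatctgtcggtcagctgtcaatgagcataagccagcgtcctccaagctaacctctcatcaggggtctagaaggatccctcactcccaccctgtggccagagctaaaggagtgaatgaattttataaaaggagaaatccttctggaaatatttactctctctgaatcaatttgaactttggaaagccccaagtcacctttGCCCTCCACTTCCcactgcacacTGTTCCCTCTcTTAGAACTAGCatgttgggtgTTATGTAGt
The capitals made 4 runs of 13, 10, 11 and 8 bases, which came to 42 bases in each window. Of the 300 bases in each window, 239 were aligned to a base of the other, and 170 of these 239 pairs were identical (71.1%). Bases set against gaps were left out of this share, and the share that unrelated windows would give was not examined. The first run began 55 bases before the annotated start in Ccl6 and 14 bases before it in Ccl9. The letters TATAAA, searched on both strands, occurred 0 times in the Ccl6 window and 3 times in the Ccl9 window, where a pair of the matches overlap, and 13.6% of 32851 promoter windows of this length held them. ACTTCC, which lies within the first run, occurred 1 time in each window, and 23.8% of the windows held it. CAGCTG occurred 0 times in Ccl6 and 1 time in Ccl9, and 16.3% of the windows held it.

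Library totals ran from 13093904 to 33211041 counts, and the groups overlapped in depth. EPR, listed in the count table as Smim31, had 297 to 1474 counts in the EPR fl/fl libraries and 0 to 10 in the EPR cKO libraries, so the genotype labels held in all 12. One library stood apart. EPR cKO 1 had a summed level of 10 smooth muscle markers of 9709 CPM (read counts scaled to a common library size by TMM, the trimmed mean of M values), whereas the 5 further knockout libraries held 1086 to 2824 and EPR fl/fl libraries 3231 to 5642. Fold changes of the 9 tested chemokines without this library are plotted beside those with all 12. Because whole tissue was used, fewer cells of a type and less RNA per cell cannot be told apart for any gene below.

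Ccl6 was far lower in EPR cKO colon than in EPR fl/fl colon, while the other chemokines of the list differed little or overlapped between the groups. The lowest, median and highest Ccl6 levels were 156, 205 and 275 CPM in EPR fl/fl, and 25.7, 36.2 and 44.9 CPM in EPR cKO. Every EPR cKO library lay below every EPR fl/fl library, and the mean was 5.83-fold lower (208 ± 49.7 against 35.7 ± 6.85 CPM, SD, n = 6 each). The counts behind these values were 466 to 8672 per library. On the log2 scale the fold change of Ccl6 was -2.54 (SE 0.17), which had rank 13 counted from the lowest among the 15952 tested genes. The value was -2.48 (SE 0.16) without EPR cKO 1.

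**Figure D1:**
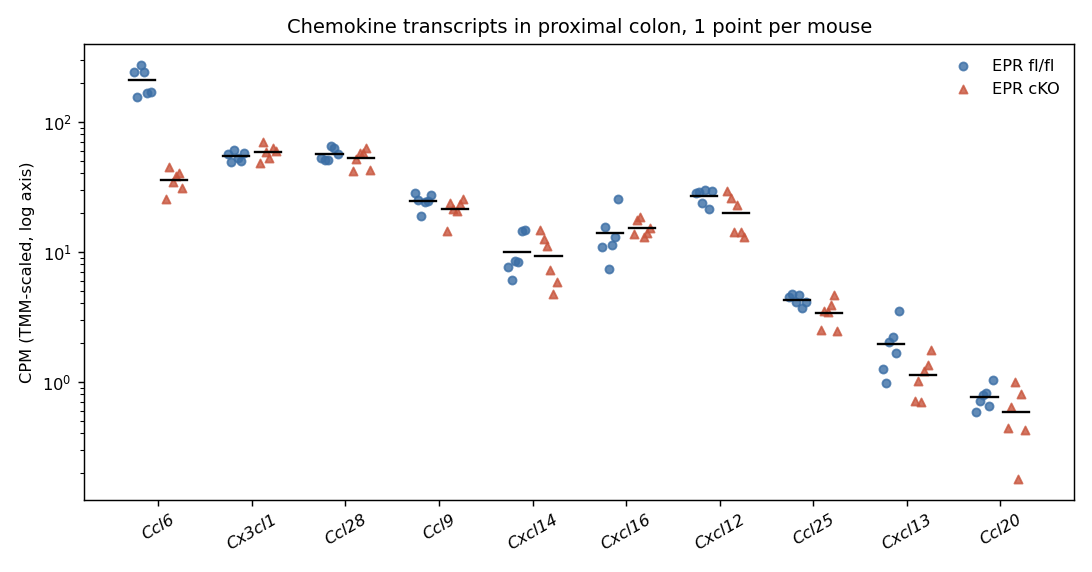
Level of each of the 10 chemokine transcripts in CPM (TMM-scaled, log axis), with 1 point per mouse, circles for EPR fl/fl, triangles for EPR cKO and a line at the mean of 6 mice; genes are in order of their level per kilobase in EPR fl/fl. The Ccl6 points form 2 clouds that do not overlap, at 156 to 275 and 25.7 to 44.9 CPM, and the points of every other gene overlap.

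Ccl6 was the 1 gene of the 9 tested that passed an adjusted p under 0.05 in edgeR's quasi-likelihood test, a call that 2.46% of all tested genes received in either direction 1.57% in the lower and 0.884% in the higher direction. It was also the 1 gene of the 10 whose groups did not overlap, which 1.47% of tested genes showed with EPR cKO below. Without EPR cKO 1, and in limma-voom with quality weights, Cxcl12 was called in addition, which made 2 of 9, in settings that called 2273 and 1891 of all tested genes lower. Since the genes were listed with this contrast known, these counts are a description. By sign, 7 of the 9 tested chemokines had lower and 2 had higher fitted values in EPR cKO, with a median log2 fold change of -0.20 against 0.02 over all tested genes.

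Ccl9, the neighbour of Ccl6 and like it a ligand of Ccr1, kept most of its level. Its lowest, median and highest values were 18.9, 24.8 and 28.3 CPM in EPR fl/fl against 14.5, 22.3 and 25.4 CPM in EPR cKO. The groups overlapped, and the lowest value of all 12 was that of EPR cKO 1. The log2 fold change of Ccl9 was -0.20 (SE 0.13), and it was -0.13 (SE 0.11) without that library. Within a library, Ccl6 CPM was 6.23 to 14.6 times Ccl9 CPM for EPR fl/fl and 1.22 to 1.88 times for EPR cKO. These ratios did not overlap, and on the log2 scale they averaged 3.05 ± 0.48 and 0.73 ± 0.23 (SD, n = 6 each). Ccl9 shares 1.97% of its stretches of 50 bases with another gene, most often Ppp1r7, and Ccl6 shares 0.

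The chemokines best known as products of intestinal epithelium were spread over a wide range of levels. Ccl28, which attracts IgA-secreting plasma cells to the colon through Ccr10, had lowest, median and highest values of 50.5, 54.3 and 65.4 CPM in EPR fl/fl and of 42.0, 54.5 and 62.8 CPM in EPR cKO. Its medians nearly coincided, 3 of 6 EPR cKO libraries lay below the EPR fl/fl mean, and it had a log2 fold change of -0.11 (SE 0.11). Ccl25, the ligand of Ccr9 that directs lymphocytes mainly to the small intestine, had values of 3.66, 4.28 and 4.74 CPM in EPR fl/fl and of 2.45, 3.46 and 4.61 CPM in EPR cKO. Although the groups overlapped, 4 of 6 EPR cKO libraries were below the lowest EPR fl/fl library, and the log2 fold change was -0.33 (SE 0.17). An overlap on the opposite strand with Elavl1 covers 3.60% of Ccl25 exon bases, and Elavl1 had means of 68.1 CPM (EPR fl/fl) and 74.5 CPM (EPR cKO).

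Ccl20, which the epithelium over lymphoid follicles makes and which draws Ccr6-bearing cells, was close to the limit of detection, with 4 to 26 counts per library. Its lowest, median and highest values were 0.586, 0.754 and 1.02 CPM in EPR fl/fl and 0.179, 0.538 and 1.00 CPM in EPR cKO. The ranges overlapped. As CPM of all counts without TMM scaling, the lowest library, EPR cKO 4, had 0.181 (Wilson 95% interval 0.0702 to 0.464) and the highest, EPR fl/fl 6, had 1.04 (0.668 to 1.63). These intervals cover counting error only. A difference between genotypes in Ccl20 was not tested.

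Cxcl16 and Cx3cl1 are the members of the chemokine family that are made as membrane-anchored proteins and can be shed by proteases. For Cx3cl1, the ligand of Cx3cr1 on mononuclear phagocytes, the lowest, median and highest values were 49.1, 54.4 and 60.8 CPM in EPR fl/fl and 48.1, 59.5 and 69.6 CPM in EPR cKO. The groups overlapped, with a log2 fold change of 0.11 (SE 0.09). Cxcl16, the ligand of Cxcr6 on T cells, spanned 7.32, 12.1 and 25.3 CPM in EPR fl/fl and 13.0, 14.6 and 18.5 CPM in EPR cKO. All 6 EPR cKO values fell inside the EPR fl/fl range, which was widened at the top by EPR fl/fl 6. Cxcl16 had a log2 fold change of 0.15 (SE 0.24). Exons of Zmynd15 on the opposite strand cover 20.5% of Cxcl16 exon bases, and Zmynd15 had mean levels of 1.47 CPM (EPR fl/fl) and 1.45 CPM (EPR cKO).

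Among the chemokines of stroma and lymphoid tissue, fitted values were lower in EPR cKO and groups overlapped. Cxcl12, a product of stromal and endothelial cells that acts through Cxcr4 and is scavenged by Ackr3, had lowest, median and highest values of 21.2, 28.4 and 29.6 CPM in EPR fl/fl and of 12.9, 18.5 and 29.5 CPM in EPR cKO. EPR cKO libraries 3, 5 and 6 lay below all EPR fl/fl libraries, and EPR cKO 1, the library rich in smooth muscle markers, was the highest of its group. For Cxcl12 the log2 value was -0.43 (SE 0.20), and -0.59 (SE 0.18) without EPR cKO 1.

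Cxcl13, which organises B cell follicles through Cxcr5, had values of 0.975, 1.84 and 3.50 CPM in EPR fl/fl and of 0.702, 1.11 and 1.76 CPM in EPR cKO. All 6 EPR cKO libraries were below the EPR fl/fl mean, yet the ranges overlapped, and counts were no more than 68 in any library. The log2 fold change of -0.78 (SE 0.32) was the lowest of the list after Ccl6, and it was -0.70 (SE 0.33) without EPR cKO 1. Markers of follicular B cells, 8 genes, summed to 2.83 to 17.8 CPM in EPR fl/fl and to 1.82 to 17.6 CPM in EPR cKO (exact permutation p = 0.729, adjusted p = 0.801 over 11 marker lists, two-sided), with no marker at 0 in all libraries.

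Cxcl14, a chemokine of epithelial and stromal cells, ranged from 6.11 through a median of 8.39 to 14.7 CPM in EPR fl/fl and from 4.71 through 9.08 to 14.8 CPM in EPR cKO. These ranges nearly coincide. The log2 fold change was -0.09 (SE 0.31), -0.29 (SE 0.30) without EPR cKO 1, and its sign changed in 5 of 21 alternative settings.

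**Figure D2:**
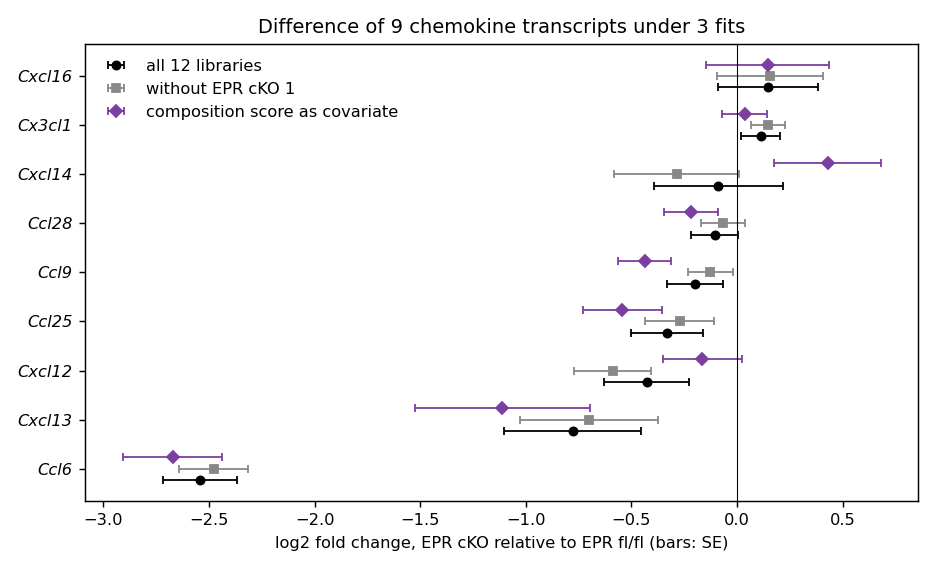
Log2 fold change of the 9 tested chemokine transcripts in EPR cKO relative to EPR fl/fl (x axis, bars are SE) with all 12 libraries, without EPR cKO 1 and with a composition score as a covariate. Ccl6 lies between -2.67 and -2.48 in all 3 fits, and the Cxcl14 value moves from -0.09 to 0.43 with the covariate.

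Levels of different genes were compared per kilobase of exon. In EPR fl/fl, Ccl6 was the most abundant of the 10 by a wide margin, at 145 ± 34.5 CPM per kilobase (SD, n = 6), above 97.9% of all tested genes. Cx3cl1 came next with 15.4 ± 1.32 and Ccl28 with 15.1 ± 1.72 CPM per kilobase, and these neighbours overlapped. Ccl9 followed with 8.23 ± 1.09 CPM per kilobase, below every Ccl28 value. Cxcl14 (5.46 ± 2.02), Cxcl16 (5.14 ± 2.29) and Cxcl12 (3.74 ± 0.487 CPM per kilobase) formed a middle group in which each overlapped the next. Ccl25 had 2.75 ± 0.261, Cxcl13 had 1.68 ± 0.778 and Ccl20 had 0.536 ± 0.108 CPM per kilobase. Between neighbours in this order, ranges separated for Ccl6 from Cx3cl1, for Ccl28 from Ccl9 and for Cxcl13 from Ccl20, and overlapped elsewhere. In EPR cKO, Ccl6 at 24.8 ± 4.76 CPM per kilobase was still first, ahead of Cx3cl1 at 16.6 ± 2.15, and the order was otherwise the same apart from an exchange of Cxcl14 and Cxcl16.

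Summed over the 10 genes, the level was 203 ± 32.6 CPM per kilobase for EPR fl/fl against 79.7 ± 9.12 for EPR cKO (SD, n = 6 each). Ccl6 made up 70.7 ± 5.90% of the sum (EPR fl/fl) and 30.9 ± 2.85% (EPR cKO). The other 9 genes summed to 58.0 ± 5.74 (EPR fl/fl) and 54.9 ± 4.72 (EPR cKO) CPM per kilobase, a difference smaller than their SD.

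**Figure D3:**
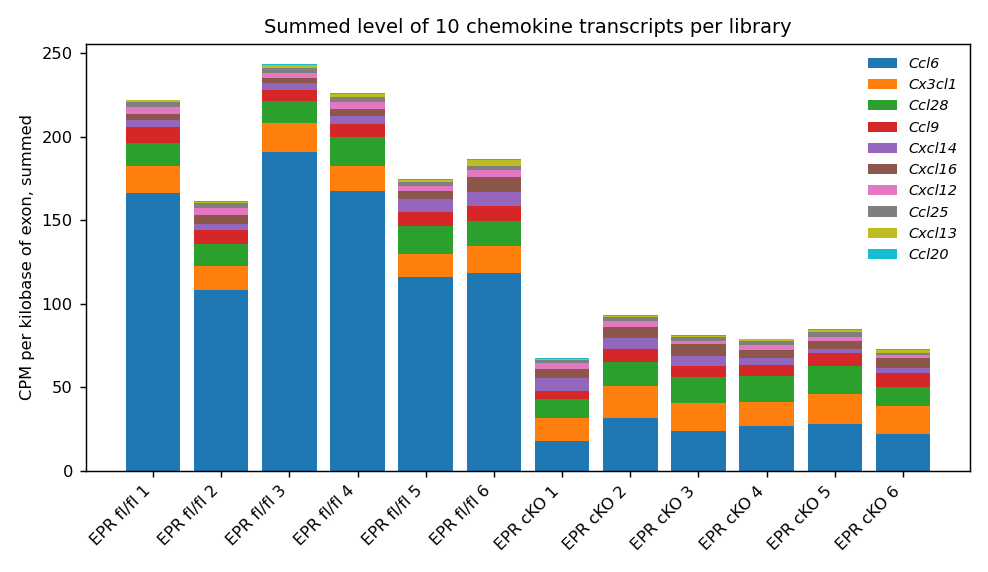
Stacked bars of CPM per kilobase of exon for the 10 chemokine transcripts in each of the 12 libraries, EPR fl/fl on the left and EPR cKO on the right. Ccl6, at the base of each bar, makes 63.4 to 78.4% of the bar in EPR fl/fl and 26.5 to 33.5% in EPR cKO, while the part above it stays between 49.5 and 68.3 CPM per kilobase.

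Whether genes around Ccl6 shared its difference was asked within 250 kb on either side, a stretch that also holds Ccl9. Besides the listed chemokines it held 26 genes, of which 23 had counts and 11 were tested. Gm11430 passed an adjusted p under 0.05, lower in EPR cKO, and the other 10 did not. Among all tested genes, 2.46% were called in either direction. Gm11430 is a locus of 217 exon bases, annotated as a pseudogene in GENCODE and as a long noncoding RNA in RefSeq, at chr11:83695275-83696185 on the plus strand, 102 kb from Ccl6. It had 0.914, 1.49 and 1.90 CPM as lowest, median and highest values in EPR fl/fl, and 0.220, 0.473 and 0.670 CPM in EPR cKO. The groups did not overlap, on 4 to 51 counts per library. Gm11430 thus had a log2 fold change of -1.64 (SE 0.27, edgeR adjusted p = 0.00634). Every EPR cKO value was under the filter of 1 CPM, so Gm11430 entered the test only through EPR fl/fl libraries. Its call and its lack of overlap are therefore partly set by that filter and are given as a description.

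Next to it, the whey acidic protein family gene Wfdc18 had 2.23 ± 0.494 CPM in EPR fl/fl against 1.04 ± 0.573 CPM for EPR cKO (log2 fold change -1.10, SE 0.32, adjusted p = 0.0992, edgeR). Wfdc18 passed 0.05 without EPR cKO 1 (adjusted p = 0.0291), without EPR cKO 6 (0.0321), in DESeq2 (0.0282) and in limma-voom with quality weights (0.0200). Wfdc17 of the same family had a log2 fold change of -0.58 (adjusted p = 0.413, edgeR). The chemokine genes Ccl5 and Ccl4, whose products attract T cells and monocytes, had log2 fold changes of -0.41 (adjusted p = 0.651, edgeR) and -0.07 (adjusted p = 0.955, edgeR). Ccl3 was too low to be tested, at 0.488 and 0.303 CPM. The remaining tested genes Ap2b1 (0.11), Heatr6 (0.08), Gm12576 (0.05), Taf15 (0.01), Mmp28 (-0.06) and Rasl10b (-0.55) had log2 fold changes that did not pass the test. E230016K23Rik, which spans Ccl6 on the opposite strand with no exon overlap, had no more than 5 counts in any library.

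**Figure D4:**
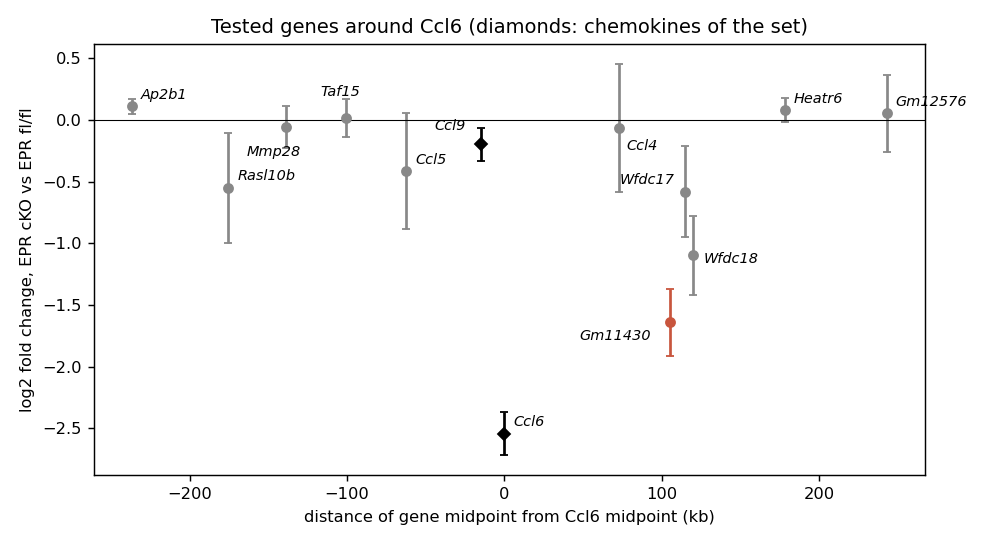
Log2 fold change in EPR cKO relative to EPR fl/fl (y axis, bars are SE) of the tested genes within 250 kb of Ccl6, against the distance of the gene midpoints from that of Ccl6 (x axis, kb); diamonds are Ccl6 and Ccl9 and the orange point is Gm11430. Ccl6 at -2.54 and Gm11430 at -1.64 lie lowest, and Ccl9, the nearest tested gene, lies at -0.20.

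Receptors of the chemokine family were then examined from a list of 23 genes, 12 of which were expressed highly enough to be tested. In edgeR 0 passed at an adjusted p of 0.05, as in DESeq2 and limma-voom, and before adjustment 0 were under that value. Of all tested genes, edgeR called 2.46% in either direction, and 2913 of 15952 were under 0.05 before adjustment. All 12 tested receptors had lower fitted values in EPR cKO under each scaling of the libraries, with log2 fold changes of -0.85 to -0.00 and a median of -0.40. The highest of these was that of Cx3cr1, whose sign changed in 10 of 21 alternative settings. With the composition score as a covariate 9 were lower and 3 higher, and without EPR cKO 1 the split was 11 and 1. Of all tested genes, 47.2% had lower fitted values. In the cell type marker lists described below, all 10 smooth muscle, 8 endothelial and 8 T cell markers were also lower, and all 12 epithelial markers were higher.

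Ccr1, the receptor of Ccl6 and Ccl9, had 5.67 ± 1.52 CPM in EPR fl/fl against 4.77 ± 0.401 CPM for EPR cKO (SD, n = 6 each; log2 fold change -0.24, SE 0.18, adjusted p = 0.485, edgeR). All 6 EPR cKO libraries were below the EPR fl/fl mean of Ccr1, yet all lay inside the EPR fl/fl range (4.26 to 5.22 against 3.39 to 7.54 CPM). Cx3cr1, the receptor of Cx3cl1, had near-equal levels in both groups (6.54 ± 1.45 and 6.53 ± 1.72 CPM). The log2 fold changes of Cxcr4 (-0.39, adjusted p = 0.572), Ackr3 (-0.41, adjusted p = 0.496), Cxcr6 (-0.43, adjusted p = 0.457) and Ccr9 (-0.28, adjusted p = 0.661, edgeR) likewise did not pass. Ccr9 shares 18.0% of its stretches of 50 bases with a transcript of the opposite strand. Receptors too low to be tested were Ccr6 at 0.257 and 0.183 CPM, Ccr10 at 0.505 and 0.616, Ccr3 at 0.377 and 0.383, and Cxcr5 at 0.398 and 0.389 in EPR fl/fl and EPR cKO.

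Ackr4, a scavenger of Ccl25 and of the lymphoid chemokines Ccl19 and Ccl21, depended on 1 library. It had 18.4 ± 4.81 CPM in EPR fl/fl against 10.2 ± 8.46 CPM for EPR cKO (log2 fold change -0.85, SE 0.41, adjusted p = 0.287, edgeR). Without EPR cKO 1 the value was -1.43 (SE 0.27, adjusted p = 0.00448), and in limma-voom with quality weights it was -1.29 (adjusted p = 0.00786). This gene was singled out after its values were seen.

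The rest of the ligand family was read from a list of 27 chemokine genes, of which 13 were tested. Again 0 were called in edgeR, DESeq2 or limma-voom, and 0 in edgeR before adjustment. Over all tested genes, edgeR called 2.46% in either direction, and 2913 of 15952 were under 0.05 before adjustment. Under each scaling 12 of the 13 ligands had lower and 1, Xcl1, had higher fitted values in EPR cKO. Their log2 fold changes ran from -0.94 to 0.25 with a median of -0.34. The split was 9 lower and 4 higher with the composition score as a covariate, and 10 and 2 of 12 tested without EPR cKO 1. Ccl21a (-1.07, adjusted p = 0.0152) and Ccl11 (-0.79, adjusted p = 0.0449) passed in edgeR when EPR cKO 1 was left out. Both genes were named for that reason, and 71.6% of the Ccl21a stretches of 50 bases are shared with near-identical copies, so its counts are uncertain.

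Proteases that act on chemokines were 3 genes, all tested. Dpp4, a membrane peptidase of the brush border and of lymphocytes that trims the amino terminus of Cxcl12 and other chemokines, fell in EPR cKO. Its lowest, median and highest values were 32.7, 38.2 and 44.2 CPM in EPR fl/fl and 21.5, 28.3 and 31.1 CPM in EPR cKO. The groups did not overlap, at a log2 fold change of -0.49 with an SE of 0.11 (edgeR adjusted p = 0.0403). Among all tested genes, 1.57% were called lower, and 1.47% had groups that did not overlap with EPR cKO below. The Dpp4 call was near its threshold. It was lost when any of EPR fl/fl 1 to 5 or EPR cKO 2, 3, 4 or 6 was left out, with adjusted p-values of 0.0538 to 0.101, and the log2 fold change then was -0.53 to -0.43. Adam10 and Adam17, which shed Cx3cl1 and Cxcl16 from the cell surface, had log2 fold changes of 0.20 (adjusted p = 0.230) and 0.01 (adjusted p = 0.948, edgeR).

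Marker lists of the cell types in the wall gave the setting of these chemokine values. The summed level of 12 goblet cell markers was 13580.2 to 28774 CPM in EPR fl/fl and 6307 to 8709 CPM in EPR cKO, with no overlap (two-sided exact permutation p = 0.00216, the smallest that 6 against 6 libraries allow, adjusted p = 0.0238 over 11 lists). These markers were chosen with earlier results of these data known, so this p-value is a description. The authors had already reported lower Muc2, Fcgbp, Clca1, Agr2 and Ern2 from their RNA-Seq. In edgeR here, Muc2 and Clca1 passed an adjusted p under 0.05. Fcgbp (adjusted p = 0.0663), Agr2 (0.209) and Ern2 (0.0866) had lower fitted values but did not pass, and their groups overlapped. Muc2 alone averaged 8027 CPM of a mean goblet sum of 18914 CPM (EPR fl/fl). Of the 12 goblet markers, 12 had lower fitted values and 7 passed an adjusted p under 0.05 in edgeR. Of all tested genes, 1.57% were called lower. Called markers included the mucin Muc2 (log2 fold change -2.19), the secretory lineage factor Atoh1 (-1.12), Clca1 (-1.36) and the trefoil peptide Tff3 (-0.53). For Tff3 the authors found similar levels in both genotypes by qRT-PCR of isolated crypts, whereas the value here is from whole tissue. Ccl6 CPM amounted to 0.950 to 1.31% of the goblet marker sum (EPR fl/fl) and to 0.297 to 0.619% (EPR cKO), and these shares did not overlap. The part of the goblet markers in the Ccl6 difference was not tested.

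For 11 macrophage markers the summed level was 200.3 to 524 CPM in EPR fl/fl and 183 to 341 CPM in EPR cKO (exact permutation p = 0.186, adjusted p = 0.603). Of these markers 10 had lower and 1 had higher fitted values, 0 passed in edgeR and none was at 0 in all libraries. Granulocyte markers were scarce: 8 of them summed to 2.73 to 5.49 CPM in EPR fl/fl and 3.87 to 7.46 CPM in EPR cKO (exact permutation p = 0.281, adjusted p = 0.603). Dendritic cell, T cell, plasma cell, fibroblast and endothelial sums also overlapped between the groups, with adjusted exact p-values of 0.603 to 0.801. Without EPR cKO 1 the endothelial sum was lower in EPR cKO (45.9 against 71.1 CPM, adjusted exact p = 0.0238). By immunohistochemistry the authors reported higher AIF1, CD8A and CD4 in EPR cKO colon. That is a measure of protein in tissue sections, whereas the sums here are of RNA from whole tissue.

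The sum of 12 epithelial markers averaged 12211 CPM in EPR fl/fl against 15280.2 CPM for EPR cKO (adjusted exact p = 0.167), and that of 10 smooth muscle markers 4387 against 3109 CPM (adjusted exact p = 0.653). Both passed 0.05 without EPR cKO 1 (adjusted exact p = 0.0238 each). Epithelium and muscle were then set against each other in a composition score, the mean log2 CPM of the former list minus that of the latter. Its mean was 1.16 ± 0.26 for EPR fl/fl against 2.35 ± 1.32 for EPR cKO (SD, n = 6 each, difference 1.19, two-sided exact permutation p = 0.0584), with EPR cKO 1 at -0.07 and the other 5 at 1.95 to 3.48. Without EPR cKO 1 the difference was 1.67 (exact p = 0.00216, the smallest that 5 against 6 libraries allow). With the score as a covariate, log2 fold changes were -2.67 (SE 0.23) for Ccl6, -0.44 (SE 0.13) for Ccl9, -0.54 (SE 0.18) for Ccl25, -0.17 (SE 0.19) for Cxcl12 and 0.43 (SE 0.25) for Cxcl14. They were -1.11 (SE 0.41) for Cxcl13, -0.22 (SE 0.13) for Ccl28, 0.14 (SE 0.29) for Cxcl16 and 0.04 (SE 0.11) for Cx3cl1. The EPR fl/fl scores ran from 0.86 to 1.59, and no EPR cKO score lay in that range. Score and genotype are therefore poorly separated in this fit.

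Within each genotype the 10 chemokines were related to this score and to a follicular B cell score, which made 40 relations over 6 libraries each. None passed adjustment, the smallest Benjamini-Hochberg value being 0.287 for Pearson's r and 0.111 for Spearman's rho. By unadjusted p, the relation with the smallest value was that of Cxcl14. In EPR cKO it was lower in libraries with a higher score (r = -0.88, exact p = 0.00972, adjusted 0.287; rho = -1, exact p = 0.00278, adjusted 0.111), and r was -0.99 without the 2 libraries farthest from the median score. In EPR fl/fl the relation of Cxcl14 had the same sign (r = -0.83, exact p = 0.0389, adjusted 0.287; rho = -0.83, exact p = 0.0583, adjusted 0.467), and r was -0.56 without 2 libraries. Larger r values were found in EPR fl/fl for Ccl25 with the composition score (r = 0.91, exact p = 0.0222, adjusted 0.287; rho = 0.89, exact p = 0.0333, adjusted 0.467) and for Ccl9 with the B cell score (r = -0.91, exact p = 0.0389, adjusted 0.287; rho = -0.77, exact p = 0.103, adjusted 0.514). Without 2 libraries these were 0.96 and -0.88, and in EPR cKO they were 0.50 and 0.65. Cxcl12 was related to the composition score with opposite signs in EPR cKO (r = -0.77, exact p = 0.0431, adjusted 0.287; rho = -0.71, exact p = 0.136, adjusted 0.605) and EPR fl/fl (r = 0.67, exact p = 0.149, adjusted 0.520; rho = 0.54, exact p = 0.297, adjusted 0.865). Leaving out 2 libraries gave r = -0.56 and 0.60. For Ccl6 itself, r was 0.56 in EPR cKO (exact p = 0.254, adjusted 0.635; rho = 0.26, exact p = 0.658, adjusted 0.908) and -0.18 in EPR fl/fl (exact p = 0.736, adjusted 0.920; rho = -0.26, exact p = 0.658, adjusted 0.908), and both turned sign without 2 libraries (-0.79 and 0.18).

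**Figure D5:**
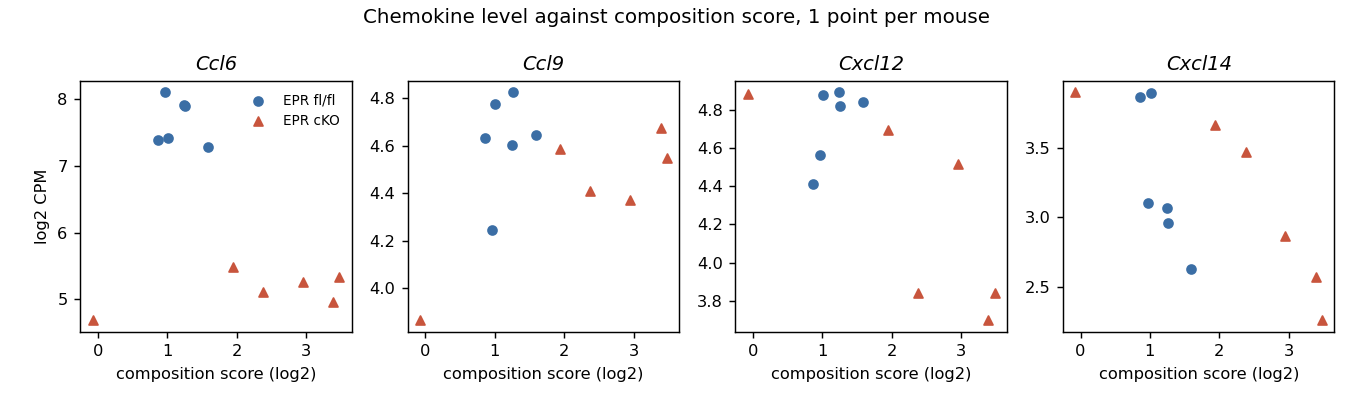
Log2 CPM of Ccl6, Ccl9, Cxcl12 and Cxcl14 (y axes, not from 0 and different in each panel) against the composition score (x axes, log2), with 1 point per mouse, circles for EPR fl/fl and triangles for EPR cKO. Ccl6 in EPR cKO stays between 4.69 and 5.49 over scores of -0.07 to 3.48, while Cxcl14 in the same libraries runs from 3.90 at the lowest score to 2.26 at the highest.

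Genes with a pattern most like that of Ccl6 were ranked by Pearson's r of log2 CPM over the 12 libraries, as a description, since the libraries share the genotype contrast. These were Ceacam10 (r = 0.985), Hgfac (0.983), Atp2c2 (0.982), B3gnt6 (0.978) and Car8 (0.977), and their log2 fold changes were -3.62, -1.47, -1.65, -2.75 and -1.11. After the genotype means were subtracted, the highest values were those of Mcf2l (0.936), Hkdc1 (0.921), Tmem191c (0.919), Gm42998 (0.902) and Tpsg1 (0.899). No gene stood in both sets of 5. Among the listed chemokines, r with Ccl6 over the 12 libraries was 0.67 for Ccl25, 0.59 for Cxcl13, 0.54 for Cxcl12, 0.44 for Ccl9, 0.36 for Ccl28, 0.05 for Cxcl14, -0.18 for Cx3cl1 and -0.38 for Cxcl16. With the genotype means subtracted it was 0.70 for Cx3cl1, 0.52 for Ccl25, 0.34 for Ccl28, 0.19 for Cxcl13, 0.14 for Ccl9, -0.05 for Cxcl12, -0.30 for Cxcl14 and -0.51 for Cxcl16, so that the sign turned for Cx3cl1, Cxcl12 and Cxcl14.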

How the data were processed

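RNA was extracted from frozen proximal colon of 12 mice, and strand-marking total RNA libraries depleted of ribosomal RNA were sequenced on an Illumina NovaSeq. Per the labels and the study's methods, reads were demultiplexed with bcl2fastq 2.20.0.422, trimmed, aligned to mm10 (GRCm38) with STAR 2.5.3a and counted per gene with featureCounts. The authors deposited raw counts of 55376 genes in 1 table, with 0 columns left without a sample. The strand setting of the counting and its handling of reads that align more than once are not given in the sources used here.

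Counts were analysed in R 4.3.3 with edgeR 4.0.16 (glmQLFit and glmQLFTest, TMM scaling, EPR cKO against EPR fl/fl, no covariate). The study's filter of at least 1 CPM in 4 or more libraries was applied (15952 of 36694 with any count), and p-values were adjusted over all of them by the Benjamini-Hochberg method. SE is the absolute log2 fold change divided by the square root of F. Log2 CPM used a prior count of 2. The common biological coefficient of variation was 26.1% and the median SE 0.14. No library was a repeat of another (smallest chi-square per gene over 30 pairs within groups, 24.7). Single measures were compared by two-sided exact permutation over 924 assignments. Alternatives used DESeq2 1.42.0 and limma 3.58.1 (voom).

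The 10 chemokines and the gene lists were chosen with earlier results of these data known, so values of these 10 between genotypes are a description and no p is printed for them. Named genes were these 10, the receptors of their known ligand and receptor pairs, genes past an adjusted p of 0.05 in the receptor, ligand and protease lists, the genes around Ccl6, EPR, and the 5 genes most like Ccl6 on each scale. Any other gene was named after its values were seen. The authors used thresholds of 0.001 and 1.25 (log2) for their own calls with a statistic whose package is not named, and edgeR was used here instead.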

Additional observations from a re-analysis of the deposited data

Results flagged for a closer look

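Cxcr4, the receptor of Cxcl12, reached 5.59 CPM in EPR fl/fl 6, far from the other 5 EPR fl/fl libraries, which had 1.51 to 2.85 CPM. It was the 1 value that stood apart by Dixon's test among 40 sets of 6 libraries examined, where chance gives about 2. The same library had the highest Cxcl16, Cxcl13 and Cxcl14 values of the EPR fl/fl group, at 25.3, 3.50 and 14.7 CPM.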

How the results depend on the processing

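Ccl6 kept its direction in all 21 alternatives (log2 fold change -2.67 to -2.44, and -2.61 to -2.45 when 1 library was left out). Genes called lower numbered 251, and 473 in DESeq2, 1891 in limma-voom with quality weights and 145 to 2273 without 1 library (153 without EPR fl/fl 3, 145 without EPR fl/fl 4, 156 without EPR cKO 3, 2273 without EPR cKO 1). Genes called higher numbered 141, and 39 with total counts, 54 without the low-count filter, 440 in DESeq2, 1372 with quality weights, 83 with the composition covariate and 28 to 1178 without 1 library. With quality weights 1 receptor and 2 other chemokines were called, and 0 to 1 and 0 to 2 without 1 library, in each case through EPR cKO 1. Genes around Ccl6 numbered 1, and 2 in DESeq2, 2 with quality weights and 1 to 2 without 1 library. The composition difference was 0.96 to 1.67 without 1 library. The order of levels kept 6 to 10 of 10 places without 1 EPR fl/fl library. Leaving out EPR cKO 1, chosen after seeing the data, took the summed difference to 3797 for epithelium, -2598 for smooth muscle and -25.2 CPM for endothelium, each past an adjusted p of 0.05. The cause of these changes was not tested.

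Replicate numbers did not pair the libraries (correlations of same-numbered libraries -0.24 to 0.34, and 2 of 6 EPR fl/fl libraries correlated best with their own number). With the number as a block, 178 genes were called lower, 67 higher and 0 around Ccl6 (Gm11430 -1.66, adjusted p = 0.0503, edgeR), Dpp4 had an adjusted p of 0.0665 (0.0570 without the low-count filter), and Ccl6 had a log2 fold change of -2.53. No other call on a receptor or chemokine changed with the block.

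Depth limited Ccl20 (4 to 26 counts per library), Gm11430 (4 to 51), Cxcl13 (13 to 68) and the untested receptors.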
